A study of Oryza sativa with 80 samples.

Results

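Jasmonate synthesis and the transcription factor MYC2 were followed in rice (Oryza sativa) leaves through 8 loci, chosen by ID from the 42189 genes counted. They are LOC_Os08g39840 and LOC_Os08g39850, both listed as plastid lipoxygenases and called lipoxygenase A and lipoxygenase B here, LOC_Os03g55800 (AOS1), LOC_Os03g12500 (AOS2), LOC_Os03g32314 (AOC), LOC_Os08g35740 (OPR7), LOC_Os05g50890 (JAR1) and LOC_Os10g42430 (MYC2). The files give IDs without names, so the names are those of the list from which the loci were taken. In the RefSeq gene table of assembly ASM3414082v1, 0 of the locus IDs were found. By name, AOS1, AOS2, AOC, OPR7 and JAR1 each matched 1 gene there, in all 5 cases on the chromosome that the locus ID gives.

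Jasmonates are plant hormones made from membrane lipids, known in leaves for their part in wounding, defence and stress responses. In the plastid a lipoxygenase oxidises linolenic acid, allene oxide synthase (AOS) and allene oxide cyclase (AOC) turn the product into the ring compound OPDA, and OPDA reductase (OPR7 in rice) acts on it in the peroxisome, where jasmonic acid is completed. JAR1 joins jasmonic acid to isoleucine, and this conjugate brings COI receptors and JAZ repressors together, so that the repressors are degraded and MYC2, a bHLH transcription factor, is released to act on its target genes.

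Poly(A) RNA came from the third leaf, fully elongated, of seedlings kept under 4 treatments. W30 plants grew in well-watered soil (3 g of water per g of dry soil) and were collected at 30 °C. W40 plants had the same soil and a heat shock of 30 min at 40 °C before collection. D30 and D40 plants grew in drier soil held at 1.5 g/g, a drought severe enough to limit growth, and were collected at 30 °C or after that heat shock. Well-watered leaves were 10 days old and drought leaves 12 days, so drought and leaf age cannot be told apart. The blade was cut into 7 segments, and segments 2 (toward the base) to 6 (toward the tip) were sequenced. Each library pooled matched segments of 3 leaves, and 4 such pools per treatment gave 16 leaf pools and 80 libraries. The labels also give a batch, with 7 pools in batch 1 and 9 in batch 2, and only 1 W40 pool lay in batch 1. These are leaf tissues of mixed cell types, in which fewer cells of a type and less RNA per cell cannot be told apart.

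Library totals ran from 53398019 to 128636996 counts, and sums of the 5 segments of a pool from 310494791 to 513401279. In the 16 pools, temperature taken alone accounted for 53.7% and batch taken alone for 48.6% of the spread on the first principal component, which held 50.3% of the variance. The loci entered as heat shock chaperones, LOC_Os05g44340 and LOC_Os08g39140, followed the temperature labels in every pool. Their summed level was 35.3 to 59.7 CPM (counts scaled to the library total) in W30 and 54.9 to 107 in D30, against 2805 to 11200 in W40 and 1970 to 19610 in D40. Within the heated treatments these sums also followed batch, with the 3 lowest in W40 replicate 1 and in D40 replicates 1 and 2, which are the heated pools of batch 1. The 2 loci entered as meristem markers were at 0 in all libraries, and the 5 entered as mesophyll markers summed to 36680 to 73830 CPM across the pools.

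Whole leaves were compared first, on the sums of the 5 segments, with edgeR's quasi-likelihood test on treatment and batch. A member is called where the p adjusted by Benjamini-Hochberg over all 25103 genes tested was under 0.05. All 8 members passed the filter on low counts. Heat in well-watered plants raised AOS1, MYC2, JAR1 and OPR7, which is 4 of 8 members against 35.1% of all genes changed in either direction and 16.3% higher. Heat in drought plants gave 0 calls of 8 in edgeR, against 34.4% of all genes, with 1 member at an unadjusted p under 0.05 and 0 called by DESeq2. Of the 25103 genes 11177 were at such an unadjusted p, and DESeq2 called 9996 of 27286. Within batch 1 this comparison called JAR1 alone, and within batch 2 it called 3 of 8 members, AOS1, OPR7 and JAR1, against 28.7% and 52.2% of all genes. Drought at 30 °C lowered lipoxygenase A, 1 of 8 members against 10.3% of all genes, 5.01% of them lower. Drought at 40 °C, that is D40 against W40, lowered lipoxygenase A, JAR1, MYC2 and AOS1, 4 of 8 members against 14.1% of all genes and 5.76% lower. Within batch 2 it called 7 of 8 members, 6 lower and AOC higher, against 48.7% of all genes, and within batch 1, with 1 W40 pool, it called AOC alone, against 2.19%. Without D40 replicate 3 or 4 the count over both batches was 0, without W40 replicate 3 or 4 it was 1, without W40 replicate 2 it was 2, and without W40 replicate 1 it was 6. D40 against W30 gave 2 calls over both batches, OPR7 higher and lipoxygenase A lower, against 46.5% of all genes. Within batch 2 this comparison called 7 of 8 members, against 16337 of the 25103 genes, and within batch 1 it called 1, against 7853. The batches differed in it for 5 of 8 members, against 10196 genes. These comparisons share treatment groups, so they are not independent of each other. The median log2 change of the 8 members with heat was 0.63 in well-watered plants, beside a median over all genes of -0.08.

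**Figure D1:**
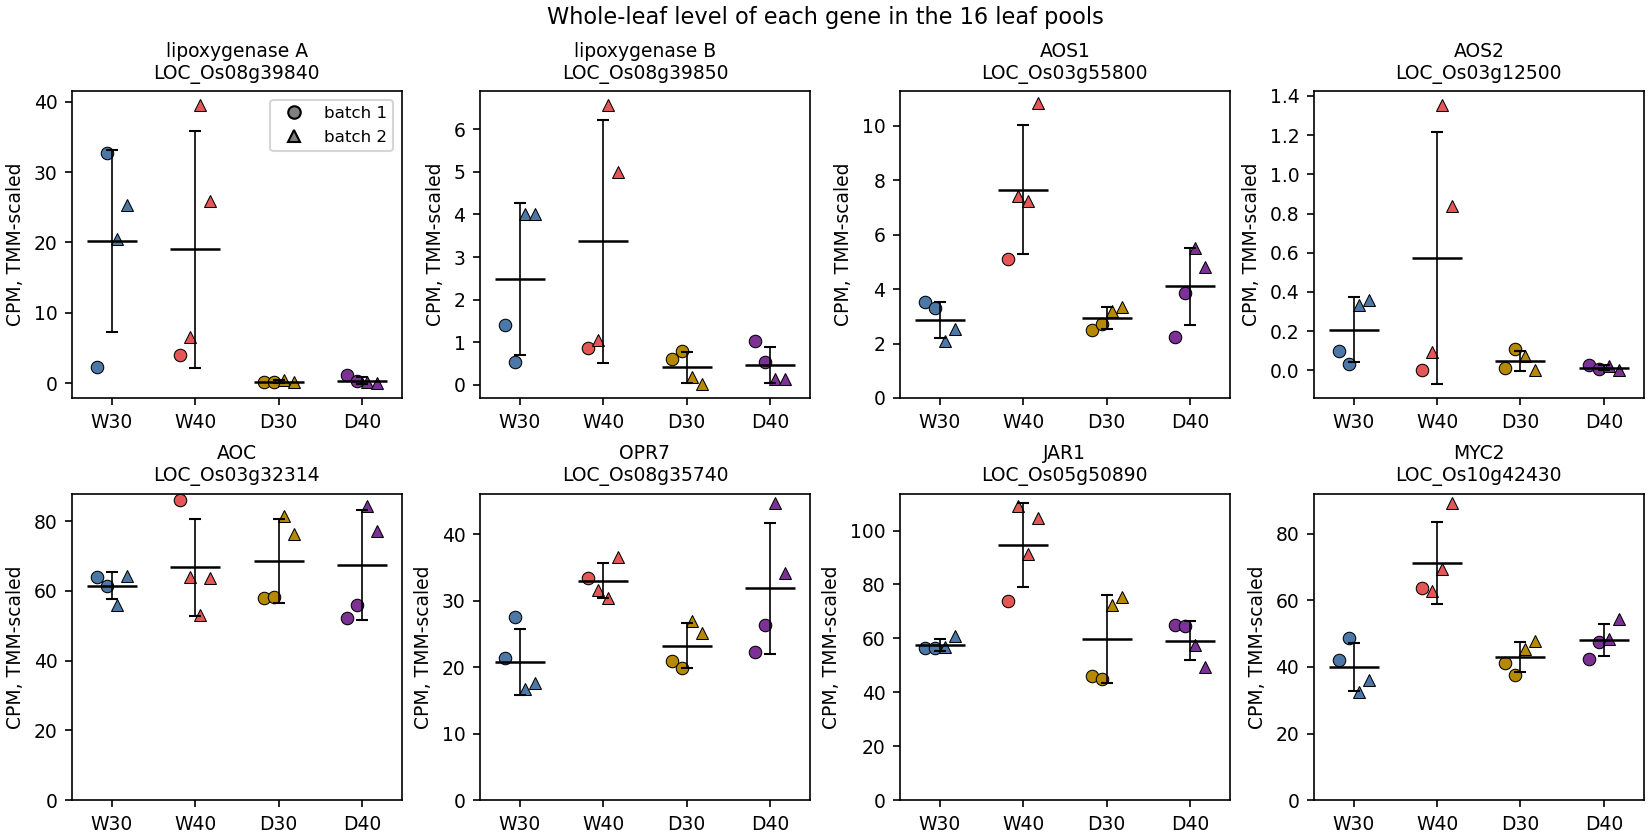
Level of each of the 8 genes in the 16 leaf pools, in CPM (counts scaled to the library total with TMM factors, which equalise the bulk of genes) on the y axis of each panel, by treatment on the x axis. Circles are pools of batch 1 and triangles pools of batch 2, the line is the mean of 4 pools and the bar its SD. AOS1, JAR1 and MYC2 have their highest mean in W40, and lipoxygenase A is near 0 in both drought treatments.

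Of the lipoxygenases, which start the pathway, lipoxygenase A was called lower in drought at both temperatures. It read 2.24, 32.7, 20.5 and 25.4 CPM in W30 replicates 1 to 4, and 3.99, 6.63, 39.5 and 25.9 CPM in W40. In drought its pools read 0.189, 0.106, 0.524 and 0.118 CPM at 30 °C, and 1.11, 0.260, 0.168 and 0.00562 CPM at 40 °C. Every well-watered pool lay above every drought pool, and replicate 1 was the lowest of the well-watered pools at each temperature. The mean was 86.2-fold higher in W30 than in D30 (20.2 ± 13.0 against 0.234 ± 0.197 CPM, SD, n = 4). In edgeR the log2 change with drought was -6.45 (SE 1.28, adjusted p = 0.006602) at 30 °C and -5.49 (SE 1.35, adjusted p = 0.01863) at 40 °C. The drop at 30 °C was called in each batch alone, at -6.89 (SE 1.50, adjusted p = 0.01128) in batch 1, where 12.6% of all genes were called, and -6.18 (SE 1.42, adjusted p = 0.005773) in batch 2, where 34.5% were. At 40 °C it was called in batch 2 (-8.05, SE 1.58, edgeR adjusted p = 0.001379) and not in batch 1 (-2.54, SE 1.36, adjusted p = 0.3305). The call at 40 °C was also lost without D40 replicate 3 (adjusted p = 0.0702) or replicate 4 (adjusted p = 0.0501). Heat left no call on this gene, at -0.16 (SE 1.06, adjusted p = 0.9236) in well-watered and 0.80 (adjusted p = 0.6228) in drought plants.

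Lipoxygenase B (LOC_Os08g39850), the neighbouring locus by its ID, may share reads with lipoxygenase A, so the split of counts between them is uncertain. Its pools held 1.40, 0.538, 4.01 and 4.00 CPM in W30 and 0.871, 1.04, 6.56 and 4.99 CPM in W40. Under drought they held 0.618, 0.804, 0.189 and 0.0211 CPM in D30 and 1.04, 0.548, 0.139 and 0.149 CPM in D40. The well-watered and drought pools overlapped, with the batch 1 pools alike in level and the batch 2 pools apart. Over both batches the log2 change with drought did not pass the test in edgeR, at -3.02 (SE 1.20, adjusted p = 0.1265) at 30 °C and -3.31 (adjusted p = 0.09284) at 40 °C. With DESeq2 it did pass, at -3.07 (adjusted p = 0.01857) and -3.38 (adjusted p = 0.007789). At 30 °C the drop was -0.45 (adjusted p = 0.7899) in batch 1 and -5.28 (SE 1.00, adjusted p = 0.00185) in batch 2, and the batches differed by -4.83 (SE 1.25, edgeR adjusted p = 0.0289), a difference called in 12% of all genes.

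AOS1, an allene oxide synthase, had the largest fold change of the 4 members called for heat in well-watered plants. Its pools read 3.53, 3.31, 2.10 and 2.53 CPM in W30 and 5.10, 7.42, 7.25 and 10.8 CPM in W40. Under drought they read 2.49, 2.72, 3.20 and 3.33 CPM in D30 and 2.24, 3.84, 5.52 and 4.80 CPM in D40. All W40 pools lay above all W30 pools, while D40 overlapped both D30 and W40. Heat raised the mean 2.67-fold in well-watered plants, from 2.86 ± 0.666 to 7.65 ± 2.37 CPM (SD, n = 4), or 1.29 on the log2 scale (SE 0.28, edgeR adjusted p = 0.002989). In drought plants the ratio of means was 1.40, with a log2 change of 0.46 (SE 0.26, edgeR adjusted p = 0.1868). Within batch 2 it passed, from a mean of 3.27 to one of 5.16 CPM over 2 pools each (0.66, SE 0.25, edgeR adjusted p = 0.03976). The difference between these responses was -0.83 (SE 0.37) and did not pass the test in edgeR (adjusted p = 0.4262). Drought changed the level by -0.84 at 40 °C (SE 0.26, edgeR adjusted p = 0.04859), a call that held in 3 of the 16 fits that each left out 1 pool.

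AOS2 (LOC_Os03g12500), the other allene oxide synthase, was close to the detection limit, with 0 counts in 44 of 80 libraries. Its pools held 0.0992, 0.0349, 0.336 and 0.361 CPM in W30 and 0, 0.0962, 1.35 and 0.839 CPM in W40. In D30 they held 0.0103, 0.108, 0.0740 and 0.00352 CPM and in D40 0.0278, 0.00571, 0.0240 and 0 CPM. The 4 highest levels were in batch 2 pools of well-watered plants. W30 and D40 did not overlap, and the other treatments did overlap with their neighbours in the order of means. None of the whole-leaf comparisons called it in edgeR, the nearest being drought at 40 °C (-4.61, adjusted p = 0.08011), where DESeq2 did call it (-4.69, adjusted p = 0.01285).

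AOC, the cyclase that follows both synthases, was not called in any whole-leaf comparison over both batches. Its pools read 64.1, 61.3, 56.0 and 64.3 CPM in W30 and 86.2, 63.9, 53.1 and 63.8 CPM in W40. Those of D30 read 58.0, 58.3, 81.5 and 76.3 CPM, and those of D40 52.3, 55.8, 84.2 and 77.2 CPM. The treatments overlapped, and in both drought treatments the batch 2 pools were the higher ones. Heat changed it by 0.09 (SE 0.18, edgeR adjusted p = 0.7128) on the log2 scale in well-watered plants. Drought at 40 °C moved it in opposite directions by batch, at -0.67 in batch 1 (SE 0.13, edgeR adjusted p = 0.02821), where 2.19% of all genes were called, and 0.42 in batch 2 (SE 0.10, adjusted p = 0.003825), where 48.7% were. The batches differed by 1.09 (SE 0.16, edgeR adjusted p = 0.0007522), which 25.3% of all genes also did. The batch 1 value rests on the single W40 pool of that batch, whose AOC level was the highest of all pools.

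OPR7, the reductase, had pools at 21.3, 27.6, 16.7 and 17.6 CPM in W30 and 33.4, 31.6, 30.5 and 36.5 CPM in W40. Drought pools held 21.0, 19.9, 27.0 and 25.1 CPM at 30 °C and 22.2, 26.3, 44.7 and 34.2 CPM at 40 °C. The W40 pools lay above all W30 pools, and the D40 pools of batch 2 were as high as those of W40. The log2 change with heat was 0.62 (SE 0.21, edgeR adjusted p = 0.03184) in well-watered and 0.45 (SE 0.20, adjusted p = 0.1001) in drought plants. Within batch 2 the rise in drought plants passed, from a mean of 26.0 to one of 39.4 CPM over 2 pools each (0.60, SE 0.15, edgeR adjusted p = 0.005609). The call in well-watered plants was lost without W30 replicate 3 (adjusted p = 0.127), W30 replicate 4 (0.127), W40 replicate 1 (0.0834) or W40 replicate 4 (0.0683). Over both batches OPR7 was the only member called higher in D40 than in W30 (0.59, SE 0.20, edgeR adjusted p = 0.02896).

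JAR1, which makes the active conjugate, stood at 56.6, 56.3, 56.8 and 60.9 CPM in W30 and at 74.0, 109, 91.2 and 105 CPM in W40. Under drought it stood at 46.2, 44.9, 72.2 and 75.4 CPM in D30 and at 64.8, 64.5, 57.7 and 49.4 CPM in D40. Every W40 pool was above every W30 pool, whereas in drought the heated pools were above the unheated ones in batch 1 and below them in batch 2. Heat in well-watered plants raised the mean 1.64-fold, from 57.7 ± 2.17 to 94.7 ± 15.7 CPM (SD, n = 4), with a log2 change of 0.65 (SE 0.16, edgeR adjusted p = 0.008165). In drought plants the pooled change of 0.02 (edgeR adjusted p = 0.9279) joined a rise of 0.51 (SE 0.10, adjusted p = 0.003065) in batch 1 and a fall of -0.46 (SE 0.10, adjusted p = 0.002193) in batch 2, in which 28.7% and 52.2% of all genes were called. These opposite values differed by -0.97 (SE 0.14, edgeR adjusted p = 0.0005034), and 27.4% of all genes differed between batches in this comparison. JAR1 was lower in D40 than in W40 by -0.60 (SE 0.17, edgeR adjusted p = 0.03006), at -0.92 (SE 0.09, adjusted p = 1.264e-05) within batch 2.

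MYC2, the transcription factor at the end of the pathway, read 42.1, 48.8, 32.4 and 36.0 CPM in W30 and 63.8, 62.9, 69.4 and 89.2 CPM in W40. Its drought pools read 41.2, 37.5, 45.3 and 47.7 CPM at 30 °C and 42.2, 47.6, 48.3 and 54.3 CPM at 40 °C. The W40 pools lay above all other pools, and the remaining 3 treatments overlapped. Heat in well-watered plants raised the mean 1.79-fold, from 39.8 ± 7.20 to 71.3 ± 12.3 CPM (SD, n = 4), or 0.82 on the log2 scale (SE 0.15, edgeR adjusted p = 0.001276). In drought plants the change was 0.16 (edgeR adjusted p = 0.4151), from 42.9 ± 4.48 to 48.1 ± 4.92 CPM. D40 was lower than W40 by -0.56 (SE 0.15, edgeR adjusted p = 0.0274).

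Whether drought changed the response to heat was tested by the interaction of soil water and temperature. It gave 0 calls among the 25103 genes in edgeR, 0% of them, with 2841 genes at an unadjusted p under 0.05, while DESeq2 called 456 of 25363 genes. The largest differences among the better-counted members were -0.83 (SE 0.37, adjusted p = 0.4262) for AOS1, -0.66 (SE 0.21, adjusted p = 0.2761) for MYC2 and -0.63 (SE 0.23, adjusted p = 0.3338) for JAR1. These 3 members were at an unadjusted p under 0.05, and 0 of 8 were called in any alternative, DESeq2 included. So the 4 calls in well-watered plants and the 0 in drought plants do not show that the responses differ. Within batch 2 the interaction was called for JAR1 (-1.25, SE 0.14, edgeR adjusted p = 0.000406), MYC2 (-0.97, SE 0.20, adjusted p = 0.008636) and AOS1 (-1.22, SE 0.33, adjusted p = 0.0274), 3 of 8 members against 18% of all genes. In batch 1, with 1 W40 pool, 0 members and 2.42% of all genes were called. The JAR1 interaction differed between the batches by -1.37 (SE 0.21, edgeR adjusted p = 0.00376), as did 10.7% of all genes, and for AOS1 and MYC2 that difference did not pass (adjusted p = 0.3049 and 0.1899).

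The heat response in well-watered plants was also read within each batch, where the batch 1 side rests on 1 W40 pool. In batch 2, where 54.6% of all genes were called, AOS1 rose by 1.88 (SE 0.24), MYC2 by 1.11 (SE 0.14), OPR7 by 0.94 (SE 0.14) and JAR1 by 0.79 (SE 0.09), with edgeR adjusted p of 4.22e-05, 4.225e-05, 0.0001568 and 2.515e-05. In batch 1, where 21.9% were called, JAR1 (0.39, adjusted p = 0.03893) and AOC (0.46, SE 0.13, adjusted p = 0.02576) passed. AOS1 (0.58, SE 0.29, adjusted p = 0.1866), MYC2 (0.49, adjusted p = 0.07402) and OPR7 (0.45, adjusted p = 0.09926) did not. The difference between batches passed for AOS1 alone (1.30, SE 0.38, edgeR adjusted p = 0.0299), and 23.6% of all genes differed. In the same pools LOC_Os05g44340, one of the loci entered as chaperones, read 68.9 CPM in W40 replicate 1 and 1223, 1539 and 1924 CPM in replicates 2 to 4, and its part in these differences was not tested.

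**Figure D2:**
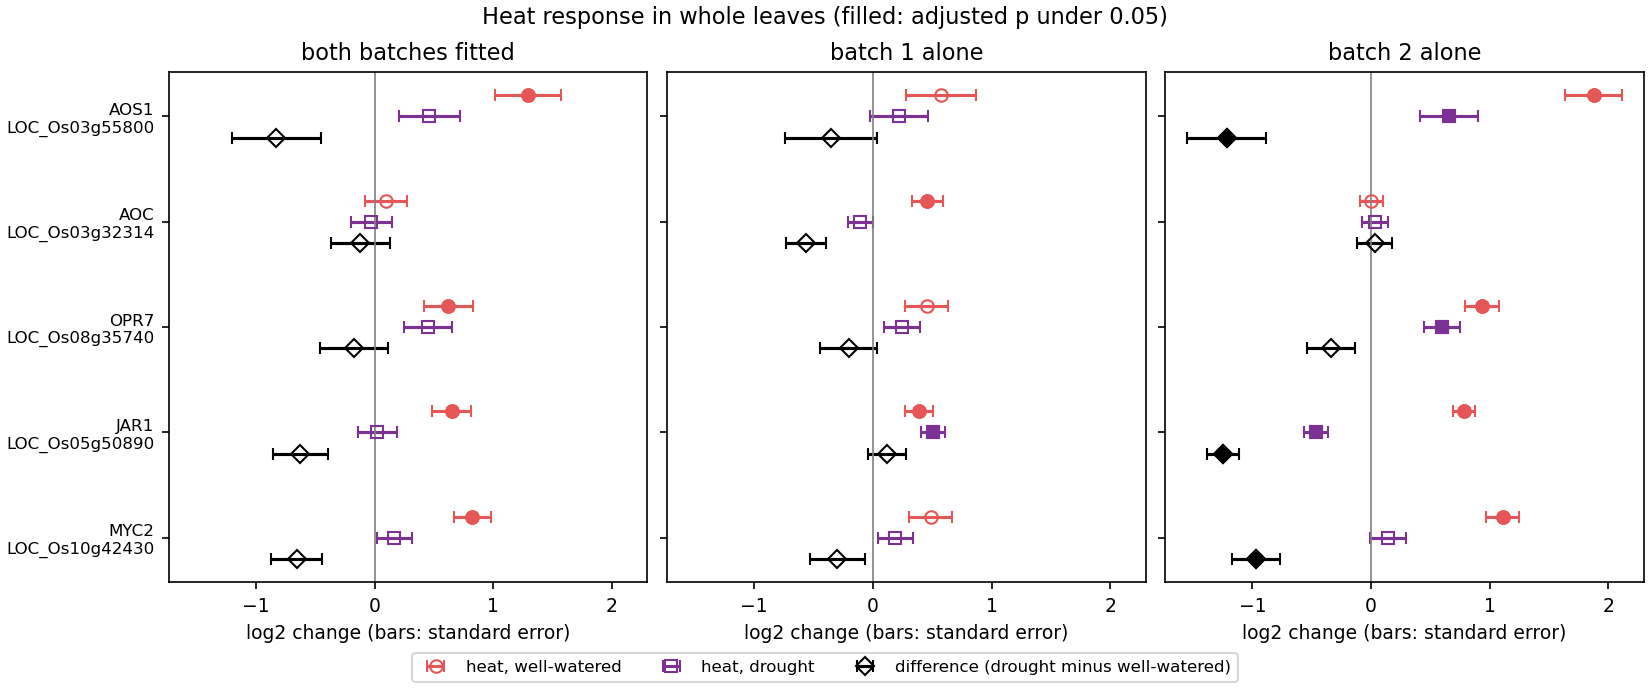
Log2 change with heat of AOS1, AOC, OPR7, JAR1 and MYC2 in well-watered plants, in drought plants, and the difference between them (drought minus well-watered), on the x axis, with bars of 1 SE. Each gene has a value from both batches, from batch 1 and from batch 2, and filled points have an edgeR adjusted p under 0.05. JAR1 in drought plants lies at 0.51 in batch 1 and -0.46 in batch 2.

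Within batch 2, drought at 30 °C was called for 6 of 8 members, against 34.5% of all genes, where the fit over both batches called 1. Lipoxygenase A and lipoxygenase B were lower, and AOC (0.39, edgeR adjusted p = 0.0148), JAR1 (0.33, adjusted p = 0.02555), MYC2 (0.44, adjusted p = 0.03849) and OPR7 (0.60, adjusted p = 0.009635) were higher. The batches differed for JAR1 (0.64, edgeR adjusted p = 0.01583) and OPR7 (0.86, adjusted p = 0.02513) as well as for lipoxygenase B. The 5 loci entered as mesophyll markers gave 1 lower call in drought at 30 °C, LOC_Os12g19381 (-0.78, SE 0.23, edgeR adjusted p = 0.04366), where 5.01% of all genes were lower. They gave 1 lower call at 40 °C (5.76% of all genes). With heat they gave 0 calls, against 35.1% of all genes in well-watered and 34.4% in drought plants. The means of LOC_Os01g41710 and LOC_Os09g17740 were higher in D30 than in W30, and those of LOC_Os12g17600, LOC_Os12g19381 and LOC_Os12g19470 lower. The summed level of the 5 loci was 60770 to 66220 CPM in W30 and 36680 to 68910 CPM in D30, and its part in the lower lipoxygenase A level was not tested.

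Levels were compared between genes on the authors' batch-corrected FPKM values, which are per length of transcript. In W30 the order was AOC at 26.9 ± 3.48 FPKM (SD, n = 4), MYC2 at 17.8 ± 4.08, JAR1 at 12.6 ± 1.37 and OPR7 at 7.21 ± 2.28. Lipoxygenase A (4.00 ± 5.12), AOS1 (1.90 ± 0.579), lipoxygenase B (0.231) and AOS2 (0.120) followed. For lipoxygenase A these values did not follow CPM, at 4.00 FPKM in W30 and 1.57 in W40, beside 20.2 and 19.0 CPM. The method of the batch correction is not given, so its place in the order is uncertain. In W40 MYC2 (27.0 FPKM) and AOC (26.5 FPKM) were level at the top. By treatment, on the CPM scale, neighbours in the order of each gene's means had overlapping ranges, apart from W40 and D40 for MYC2 and for lipoxygenase A.

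Along the blade, segment 6 was compared with segment 2 within each treatment, with the leaf pool as a block over all 80 libraries. In well-watered leaves AOS1, AOC, OPR7 and JAR1 were higher toward the base, and the 2 lipoxygenases toward the tip. In W30, 6 of 8 members were called against 31.2% of all genes, with 4 lower at the tip (14.1% of all genes) and 2 higher (17.1%). In W40, 7 of 8 were called against 35% of all genes, 4 of them lower (16.9%) and 3 higher (18.2%). The loci entered as mesophyll markers had 3 of 5 lower at the tip in W30 and in W40, and 1 of 5 in D30 and in D40, and their part in these gradients was not tested. D30 had 2 calls (18.6% of all genes, 8.38% lower) and D40 had 3 (24.5%, 10.6% lower), all lower at the tip.

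AOS1 had the largest called fall toward the tip in W30, W40 and D40. In W40 its mean went from 14.9 ± 6.5 CPM (SD, n = 4) in segment 2 through 11.4 ± 4.09, 6.44 ± 2.34 and 3.97 ± 1.22 to 3.56 ± 0.862 CPM in segment 6. In W30 it went from 4.16 ± 0.753 to 2.46 ± 1.05 CPM, and in D40 from 5.91 ± 2.04 to 2.42 ± 0.708 CPM. Segment 2 was above segment 6 in every pool of every treatment. The log2 change from segment 2 to 6 was -1.98 in W40 (SE 0.22, edgeR adjusted p = 3.961e-10), -0.84 in W30 (SE 0.22, adjusted p = 0.002274) and -1.27 in D40 (SE 0.22, adjusted p = 1.171e-05). It became steeper with heat in well-watered plants by -1.14 (SE 0.30, edgeR adjusted p = 0.02208), and that call was lost without W30 replicate 1, W30 replicate 2, W40 replicate 3 or W40 replicate 4.

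OPR7 fell toward the tip in all 4 treatments, with segment 6 below segment 2 in every pool. In W40 its mean went from 47.6 ± 11 CPM (SD, n = 4) to 25.8 ± 3.68 CPM, or -0.88 on the log2 scale (SE 0.11, edgeR adjusted p = 1.307e-08). The change was -0.41 in W30, -0.38 in D30 and -0.47 in D40, each called. AOC likewise had segment 6 below segment 2 in every pool. Its mean went from 92.3 to 51.1 CPM in W40 (-0.90, SE 0.12, edgeR adjusted p = 2.468e-08), from 68.4 to 54.4 CPM in W30 (-0.34, SE 0.12, adjusted p = 0.02193) and from 86.9 to 53 CPM in D40 (-0.67, SE 0.12, adjusted p = 1.328e-05). JAR1 fell by 0.46 in W30 (SE 0.09, edgeR adjusted p = 3.623e-05), by 0.29 in W40 and by 0.27 in D30, and it was not called in D40. MYC2 was not called in any treatment, with log2 changes from -0.29 to -0.05.

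The lipoxygenases ran the other way in well-watered leaves. Lipoxygenase A had means of 4.18 ± 4.5, 12.5 ± 13.8, 15 ± 16, 28.5 ± 16.7 and 36.4 ± 22.4 CPM (SD, n = 4) from segment 2 to 6 of W30. In W40 they were 12.1, 9.82, 16.6, 25.7 and 31.8 CPM. Segment 6 exceeded segment 2 in 4 of 4 pools of W30, W40 and D30 and in 1 of 4 of D40. The log2 change to the tip was 3.44 in W30 (SE 0.42, edgeR adjusted p = 7.848e-09) and 1.57 in W40 (SE 0.38, adjusted p = 0.0009639). In drought the segment means stayed between 0.105 and 0.641 CPM. Lipoxygenase B rose by 3.50 in W30 (SE 0.97, edgeR adjusted p = 0.004005), from 0.398 to 5.45 CPM, and by 3.39 in W40 (SE 0.94, adjusted p = 0.003732), from 0.599 to 7.52 CPM. The high tip levels of lipoxygenase B in W30 came from the batch 2 pools, at 10.1 and 9.89 CPM in segment 6, while the batch 1 pools held 1.29 and 0.563 CPM there.

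AOS2 had its highest means toward the tip of well-watered leaves, with counts spread unevenly over the libraries. Heat in well-watered plants called it in 0 of the 3 segments tested in edgeR. In segment 6 of W40 the replicates held 0, 0.681, 4.17 and 0.959 CPM, a total of 526 counts, and in segment 3 all 4 libraries were at 0. In W30, 143 counts fell in segment 5 and 170 in segment 6, of which single libraries gave 92 and 110. Segment 6 was above segment 2 in 2 of 4 W30 pools, and the change along the blade was not called there in edgeR. No library of D40 held a count in segments 4 or 6, where 3 counts over the group correspond to 0.00934 and 0.00914 CPM. W40 replicate 3 gave 432 of the 526 counts, and replicate 1, the W40 pool of batch 1, gave none. The mean of 1.45 CPM in segment 6 of W40 was 159-fold above the floor of D40 there. This ratio is no lower bound on a group difference, since W40 and D40 overlapped at 0. The fitted log2 change from segment 2 to 6 in W40 was 8.19 (SE 1.98, edgeR adjusted p = 0.001242), a size that depends on the prior count since segment 2 held 2 counts.

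**Figure D3:**
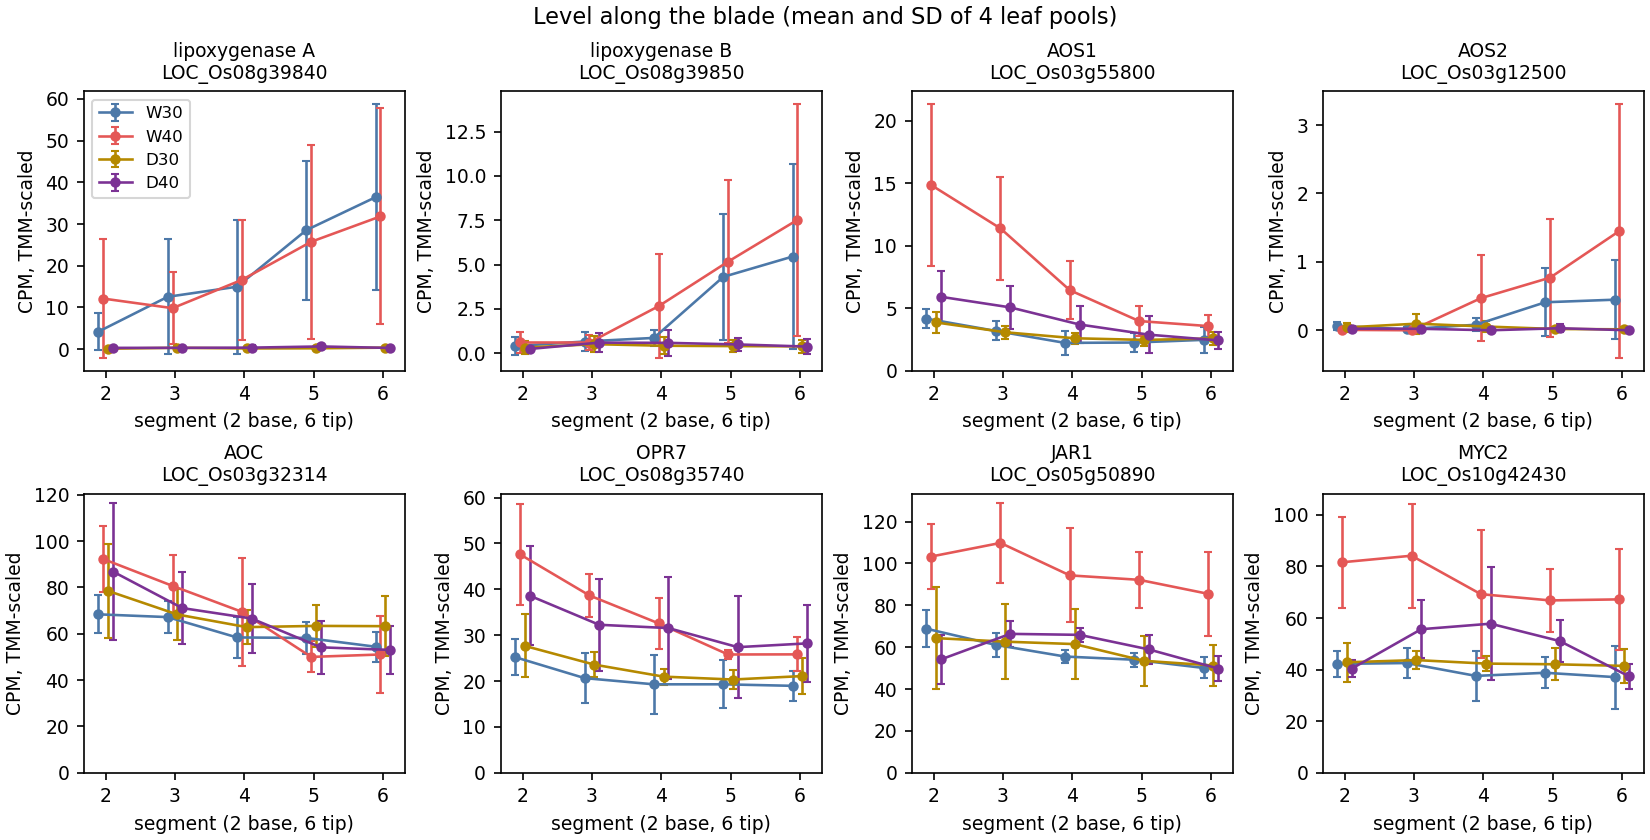
Mean level of each of the 8 genes in CPM (y axis) in segments 2 to 6 of the blade, base to tip (x axis), for the 4 treatments, with bars of 1 SD over 4 pools. AOS1 in W40 falls from 14.9 to 3.56 CPM, while lipoxygenase A in W30 climbs from 4.18 to 36.4 CPM.

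Heat altered the gradient of 3 of 8 members in well-watered plants, against 3.52% of all genes. These were AOS1, AOC (-0.56, SE 0.16, edgeR adjusted p = 0.04128) and lipoxygenase A (-1.87, SE 0.55, adjusted p = 0.04118). The AOC call held in 3 of the 16 fits without 1 pool and the lipoxygenase A call in 7 of 16. Drought at 40 °C altered the gradient of 1 member, AOS2 (-11.85, SE 3.47, edgeR adjusted p = 0.02876), against 7.05% of all genes, a fitted size that also depends on the prior count. Heat in drought plants (0.188% of all genes) and drought at 30 °C (2.61%) gave 0 of 8 members in edgeR, with 2 and 1 members at an unadjusted p under 0.05. Of all 23888 genes, 1809 and 3818 were at such an unadjusted p.

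Each segment was then tested on its own, 38 tests on members in all, since AOS2 did not pass the filter in segments 2 and 3. The segments come from the same leaf pools, so calls of a gene in several segments are not independent of each other. Heat in well-watered plants raised members in 13 of the 38 tests, against 28.5% of all gene tests over the segments, 14.1% of them higher. AOS1 rose in segments 2 (1.61, SE 0.28, edgeR adjusted p = 0.0009594), 3 (1.61, SE 0.26, adjusted p = 0.0005316) and 4 (1.45, SE 0.40, adjusted p = 0.01561). In segments 5 and 6 its values of 0.65 (adjusted p = 0.2004) and 0.50 (adjusted p = 0.3203) did not pass. In segment 2 the AOS1 libraries read 5.15, 4.30, 3.74 and 3.44 CPM in W30 and 8.78, 13.9, 12.7 and 24.0 CPM in W40, with no overlap. In segment 6 they read 3.46, 3.00, 1.04 and 2.34 CPM in W30 and 3.15, 4.19, 2.55 and 4.36 CPM in W40, and overlapped. OPR7 rose in segments 2 (0.75, edgeR adjusted p = 0.01054) and 3 (0.79, adjusted p = 0.01305).

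JAR1 and MYC2 were called over more of the blade. JAR1 rose in segments 3 to 6, by 0.64 to 0.70 on the log2 scale, with 0.46 in segment 2 (edgeR adjusted p = 0.1396). MYC2 rose in segments 2 (0.91), 3 (0.88), 5 (0.66) and 6 (0.86), with 0.78 in segment 4 (edgeR adjusted p = 0.05525). Heat in drought plants gave 0 calls in 38 tests (27.7% of all gene tests) in edgeR, with 4 at an unadjusted p under 0.05 and 1 called by DESeq2. Per segment, 8359 to 9051 of the 21736 to 22049 genes tested were at such an unadjusted p.

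Drought at 30 °C gave 6 calls, all lower, against 7.06% of all gene tests and 3.3% lower. Lipoxygenase A was lower in all 5 segments, by log2 changes from -7.26 to -5.12, and AOS2 in segment 6 (-4.88, edgeR adjusted p = 0.04055). Drought at 40 °C gave 13 lower calls, against 9.15% of all gene tests and 3.59% lower. They were lipoxygenase A in 5 segments, JAR1 in segments 2, 5 and 6, AOS1 in segments 2 (-1.22, edgeR adjusted p = 0.01572) and 3 (-1.01, adjusted p = 0.02527), MYC2 in segments 2 (-1.01, adjusted p = 0.004441) and 6 (-0.84, adjusted p = 0.04511), and AOS2 in segment 6. In segment 2 MYC2 read 92.1, 63.2, 70.4 and 101 CPM in W40 and 40.6, 43.7, 41.8 and 35.6 CPM in D40, with a wide gap between the groups. D40 against W30 gave 10 calls (39.5% of all gene tests), with OPR7 higher in 4 segments, lipoxygenase A lower in 5 and AOS2 lower in segment 6. The interaction was called in 0 of 38 tests on members and 0.00639% of all gene tests in edgeR, with 9 at an unadjusted p under 0.05 and 1 called by DESeq2. Per segment, 1656 to 2211 of the 21736 to 22049 genes tested were at such an unadjusted p for the interaction.

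**Figure D4:**
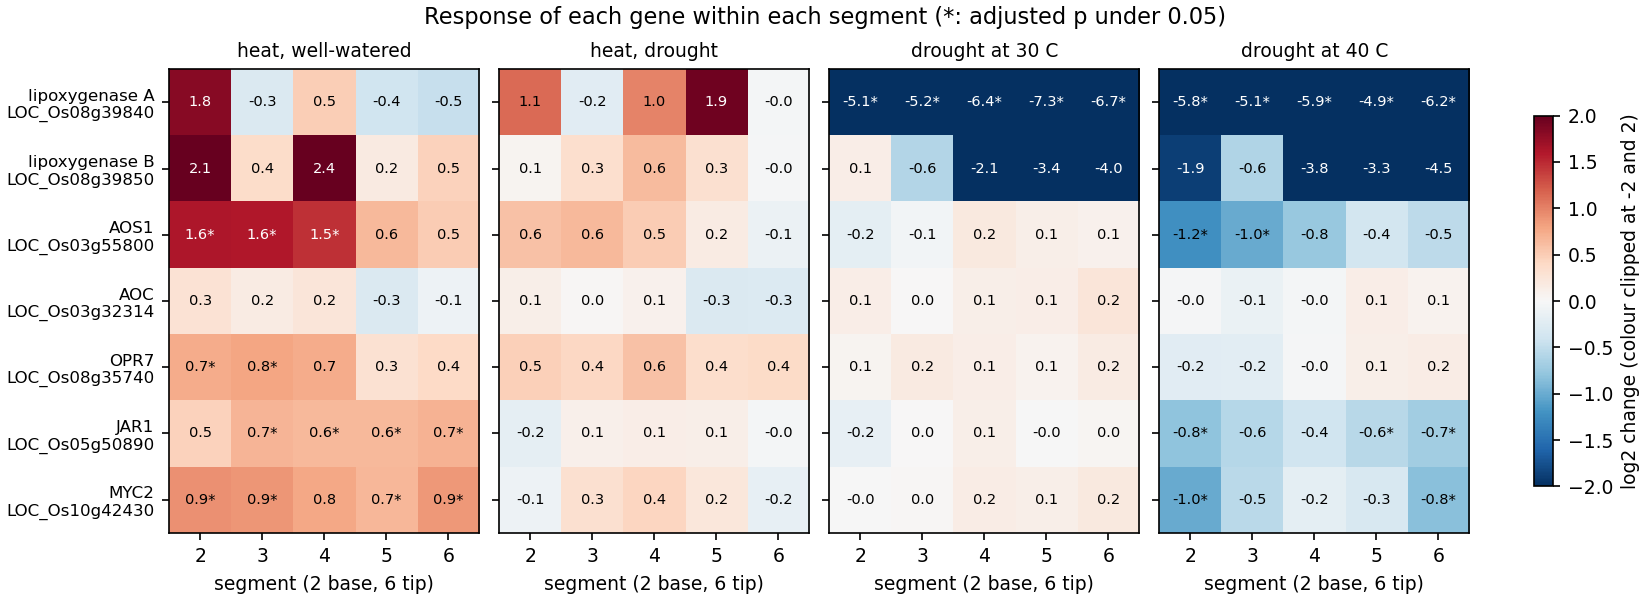
Log2 change of 7 genes (rows) in segments 2 to 6 (columns) for heat in well-watered plants, heat in drought plants, drought at 30 °C and drought at 40 °C, with colours clipped at -2 and 2 and a star where the edgeR adjusted p was under 0.05. AOS2, untested in 2 segments, is left out. Heat in well-watered plants has stars for AOS1 in segments 2 to 4, and heat in drought plants has none.

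Other genes of the pathway were followed through lists of loci entered by hand, whose names no file checks. The list entered as JAZ repressors, which hold MYC2 inactive, had 10 of 13 loci higher with heat in well-watered plants (median log2 change 2.07), where 16.3% of all genes were higher. In drought plants 10 of 13 were higher (median 1.76), against 16.6% of all genes. In it LOC_Os03g28940 went from 21.6 ± 4.93 to 156 ± 36.4 CPM (SD, n = 4) in well-watered plants (2.59, SE 0.24, edgeR adjusted p = 8.132e-06) and changed by 1.76 (SE 0.23, adjusted p = 0.0001145) in drought plants. Drought lowered 2 of the 13 at 30 °C (5.01% of all genes) and 1 of 13 at 40 °C (5.76%), in both cases with LOC_Os03g08310 (-2.33, edgeR adjusted p = 0.005786, and -2.17, adjusted p = 0.008437). Of the 3 loci entered as COI receptors, LOC_Os05g37690 (-0.45, SE 0.14, edgeR adjusted p = 0.02603) and LOC_Os01g63420 (-0.31, SE 0.11, adjusted p = 0.04672) fell with heat in well-watered plants, where 18.7% of all genes were lower. The third, LOC_Os03g15880, was at -0.31 (edgeR adjusted p = 0.09141). Across the other 4 whole-leaf comparisons and the interaction none of the 3 was called in edgeR.

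Both loci entered as jasmonate-related bHLH factors rose with heat. LOC_Os03g53020 rose by 1.81 (SE 0.23, edgeR adjusted p = 8.748e-05) in well-watered and 1.19 (adjusted p = 0.001377) in drought plants. LOC_Os04g23550 read 0.107, 0.0449, 0.452 and 1.78 CPM in W30 and 6.22, 11.9, 12.2 and 39.9 CPM in W40. In D30 it read 0.385, 0.237, 6.87 and 8.21 CPM and in D40 0.328, 2.23, 28.8 and 29.9 CPM. W40 lay above W30 throughout, and in drought the batch 2 pools were the high ones at both temperatures. Its log2 change with heat was 5.08 (SE 0.82, edgeR adjusted p = 0.0004604) in well-watered and 1.97 (adjusted p = 0.04202) in drought plants, and with drought at 30 °C 2.46 (adjusted p = 0.04933).

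Among the list of other lipoxygenase loci, 9 of 12 passed the filter. Of these 9, heat raised 2 in well-watered plants, against 16.3% of all genes, and lowered 1 in drought plants, against 17.8%. Drought raised 2 of them at 30 °C (5.27% of all genes), and at 40 °C it raised 2 (8.37%) and lowered 2 (5.76%). The one with the clearest rise under drought at 30 °C was LOC_Os02g10120, which went from 491 ± 66.2 to 1495 ± 59.4 CPM (1.61, SE 0.14, edgeR adjusted p = 6.128e-05), opposite in direction to lipoxygenase A. LOC_Os03g49350 also rose there (2.17, SE 0.52, edgeR adjusted p = 0.01709). With heat in well-watered plants LOC_Os03g49380 (1.56, edgeR adjusted p = 0.0008822) and LOC_Os04g37430 (0.41, adjusted p = 0.02823) rose, and in drought plants LOC_Os02g10120 fell by 0.75 (adjusted p = 0.001405). The list of 4 loci entered for side branches of the pathway had LOC_Os01g12160 lower with heat in well-watered plants (-2.48, SE 0.31, edgeR adjusted p = 7.535e-05) and in drought plants (-1.39, adjusted p = 0.003242), among 2 lower calls of 4 in each, where 18.7% and 17.8% of all genes were lower. In well-watered plants LOC_Os02g02000 was also lower (-0.94, SE 0.27, edgeR adjusted p = 0.01634) and LOC_Os12g05440 higher (3.65, SE 1.15, adjusted p = 0.02436). In drought plants the other was LOC_Os01g67430 (-1.86, SE 0.45, edgeR adjusted p = 0.00585), which reached at most 0.39 CPM in any pool and rose with drought at 30 °C (2.12, SE 0.45, adjusted p = 0.009373). The interaction was called for none of the listed loci in edgeR, as for all 25103 genes.

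The same lists were followed along the blade. Of the 12 JAZ loci tested there, 0 were called in W30 in edgeR (31.2% of all genes). At an unadjusted p under 0.05 were 2 of them (9833 of all 23888 genes). At the tip 2 were lower in W40 (16.9% of all genes), 1 was higher in D30 (10.2%), and in D40 1 was higher (13.8%) and 1 lower (10.6%). LOC_Os08g33160 was lower at the tip in W40 (-0.62, SE 0.08, edgeR adjusted p = 6.427e-08) and in D40 (-0.38, SE 0.08, adjusted p = 0.0005174). Both bHLH loci were higher at the tip in W30 and D30, at 1.17 (SE 0.23, edgeR adjusted p = 5.928e-05) and 0.95 (SE 0.22, adjusted p = 0.001162) for LOC_Os03g53020. In W40 neither was called, and for LOC_Os03g53020 the gradient changed with heat by -1.26 (SE 0.31, edgeR adjusted p = 0.01132). Among the other lipoxygenase loci LOC_Os03g08220 was lower at the tip in W40 (-1.12, SE 0.14, edgeR adjusted p = 1.319e-08), D30 and D40, against the direction of lipoxygenase A and lipoxygenase B.

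Likeness of pattern was described over the 20 group means of treatment and segment, as the Pearson correlation of log2(CPM + 0.5) with each of 23887 other genes. The groups share libraries, pools and depth, so the values carry no test. MYC2 and JAR1 had an r of 0.947, which made JAR1 the gene ranked 8 of all for MYC2 and MYC2 the gene ranked 5 for JAR1. AOS1 and OPR7 had an r of 0.902 (rank 34 for AOS1), and lipoxygenase B and AOS2 one of 0.942. The 2 genes nearest to MYC2 were LOC_Os02g46930 (0.967) and LOC_Os03g62730 (0.953), and those nearest to AOS2 were LOC_Os12g30824 (0.985) and LOC_Os01g50870 (0.983). These names depend on the setting: over the 80 single libraries the nearest were LOC_Os01g50940 and LOC_Os12g39620 for MYC2, and LOC_Os07g11870 and LOC_Os12g30824 for AOS2. On the group means of log2(FPKM + 1) both pairs were other genes again. Over the 80 single libraries the value was 0.76 for MYC2 with JAR1, 0.82 for AOS1 with OPR7 and 0.85 for lipoxygenase B with AOS2.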

How the data were processed

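Poly(A) RNA of 80 rice leaf libraries was analysed. HISAT2 2.2.1, featureCounts 2.0.6 and Picard 3.1.0 are named in the submitters' processing notes, with no build. Raw counts per gene, deposited by the authors, were the main input. They also deposited batch-corrected counts, which are estimated counts and were rounded here to whole numbers, and batch-corrected FPKM values, used for levels between genes and in alternatives. The method of that correction and the genome build are not given in the sources used here. Even values made up 76.9% of raw counts between 1 and 20, so counts overstate the independent fragments. Libraries of a group differed by more than sampling noise (lowest chi-square per degree of freedom 9.21 over 120 pairs).

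Tests used R 4.3.3 and edgeR 4.0.16 (quasi-likelihood F tests after TMM scaling and filterByExpr at a count of 10 and a total of 15, Benjamini-Hochberg adjustment, threshold 0.05). Whole leaves were sums of 5 segments in 16 pools, fitted on treatment and batch, as were the 16 libraries of each segment. Segment 6 against segment 2 used pool as a block over 80 libraries. Within-batch values came from 1 mean per treatment and batch, in which the single W40 pool of batch 1 is assumed to vary like the others. SE was derived from the log2 change and the root of its F statistic. Segments of a pool come from the same leaves by protocol, and their deviations had a median correlation of 0.81, against -0.61 between pools. The deviations were from means of 4 libraries with batch left in, which favours such a contrast, so these values do not measure the pairing by leaf. Alternatives were DESeq2 1.42.0, limma 3.58.1 on log2(FPKM + 1) or log2(FPKM + 0.1), other scaling, no filter, other batch handling, a replicate block and leaving out each pool. The whole-leaf and blade procedures were run on simulated counts without a batch effect, which do not cover the unbalanced batch of these data.

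The members and lists were chosen with earlier results of these data known, so no p is adjusted over a list alone. All 8 members were named. Other lists gave at most 3 loci per comparison with the smallest adjusted p, and lists of 4 or fewer could be named whole. Likeness gave the 2 genes nearest to AOS2 and to MYC2.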

Additional observations from a re-analysis of the deposited data

Results flagged for a closer look

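JAR1 (LOC_Os05g50890) in W30 had 1 pool apart from the others. Replicate 4 read 60.9 CPM, and its gap to the next pool was 0.89 of the range of the group, above Dixon's 95% critical value for 4 samples. Chance gives such a value in about 1 in 20 groups, and 32 groups were examined.

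Differences between treatments in the gradient from base to tip passed the edgeR test for 4 members. With heat in well-watered plants the log2 change from segment 2 to segment 6 moved by -0.56 for AOC (LOC_Os03g32314), by -1.14 for AOS1 (LOC_Os03g55800) and by -1.87 for lipoxygenase A (LOC_Os08g39840). With drought at 40 °C it moved by -11.85 for AOS2 (LOC_Os03g12500), in which segment 6 of D40 held no count.

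The interaction of soil water and heat passed within batch 2 and not over both batches, at -1.22 for AOS1, -1.25 for JAR1 and -0.97 for MYC2 (LOC_Os10g42430) on the log2 scale. In batch 1 the same comparison rests on 1 W40 pool.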

How the results depend on the processing

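Over whole leaves, heat in well-watered plants gave 4 member calls, 2 with limma on log2(FPKM + 0.1) or log2(FPKM + 1), and 3 to 4 when 1 pool was left out. AOS1, MYC2 and JAR1 were called in all 16 of those fits, and 3 was reached without W30 replicate 3 or 4 or W40 replicate 1 or 4. Heat in drought plants gave 0, 1 with batch-corrected counts, and 0 to 1 without a pool (1 without D40 replicate 1). Drought at 30 °C gave 1, 2 with DESeq2, and 1 without any pool, lipoxygenase A being called in all 16 fits and all 8 alternatives. Drought at 40 °C gave 4, 2 with limma on log2(FPKM + 1), and 0 to 6 without a pool (0 without D40 replicate 3 or 4, 6 without W40 replicate 1). D40 against W30 gave 2, 4 with DESeq2, 1 with either limma fit, and 1 to 4 without a pool (1 without replicate 3 or 4 of D40 or W30, 4 without D40 replicate 1, W30 replicate 2 or W40 replicate 1). The interaction gave 0 throughout. Of 25103 genes the main fit called 8801 for heat in well-watered plants, against 10388 and 10162 of 25095 with the limma fits. For heat in drought plants it called 8646, against 9982 of 25313 with batch-corrected counts. Drought at 30 °C had 2580, and 4311 of 26645 with DESeq2. Drought at 40 °C had 3547, and 2575 of 25095 with limma on log2(FPKM + 1). D40 against W30 had 11683, 13063 of 27286 with DESeq2, and 12844 and 12499 with the limma fits.

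Over single segments, heat in well-watered plants gave 13 calls, 8 and 7 with limma on log2(FPKM + 0.1) and log2(FPKM + 1), and 7 to 15 without a pool (7 without W30 replicate 3, 8 without W30 replicate 4). Heat in drought plants gave 0, 1 with DESeq2, 2 with batch-corrected counts and with either limma fit, and 0 to 2 without a pool (2 without D40 replicate 1). Drought at 30 °C gave 6, 3 and 2 with limma, 3 with no batch term, and 3 to 6 without a pool (3 without D30 replicate 1, 2 or 4, W30 replicate 4 or W40 replicate 4). Drought at 40 °C gave 13, 7 and 3 with limma, 6 with no batch term, and 3 to 16 without a pool (3 and 4 without D40 replicates 3 and 4, 6 and 5 without W40 replicates 3 and 4). D40 against W30 gave 10, 6 with limma on log2(FPKM + 1), and 5 to 15 without a pool (5 and 6 without D40 replicates 3 and 4, 6 without W30 replicate 3 or 4). The interaction gave 0, 1 with DESeq2, and 0 without any pool. Calls over all genes moved with the setting as well. In segment 2, for example, drought at 40 °C called 2002 of 21974 genes in the main fit and 508 with no batch term. The limma fits on log2(FPKM + 0.1) and log2(FPKM + 1) called 1172 and 914 of 21973 there. For heat in well-watered plants these 4 settings called 6984, 4563, 6937 and 6627 in that segment.

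Along the blade, leaving out a pool gave 3 to 6 calls in W30 (3 without W30 replicate 3), 6 to 7 in W40, 0 to 5 in D30 (0 and 1 without D30 replicates 3 and 4, 4 or 5 without W30 replicates 1 to 3 or W40 replicate 1) and 3 in D40. These fits along the blade kept the low-count filter and dispersion trend of the full fit, whereas those for whole leaves and segments were redone in full. D30 gave 4 with RLE size factors, which added AOC and AOS1. For gradients, heat in well-watered plants gave 0 to 4 (0 without W40 replicate 3 or 4, 1 without 8 other pools), drought at 40 °C 0 to 3 (0 without D40 replicate 1 or W40 replicate 2, 3 or 4, 3 without W40 replicate 1) and 0 with batch-corrected counts. The other gradients gave 0. No call reversed direction in any alternative. The causes were not tested.

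Replicate numbers were not taken to pair pools of different treatments. Deviations of same-numbered pools had a median correlation of -0.17 over 24 pairs, against 0.055 for different numbers. In all, 0 pools correlated best with their own number. The deviations were from treatment and batch means, which pushes pools of a batch in different treatments toward opposite signs. Same-numbered pools mostly share a batch, so these values cannot decide whether replicate numbers pair pools. With replicate number as a block beside batch, whole-leaf calls were 3 for heat in well-watered plants, 0 for drought at 40 °C and 1 for D40 against W30, and segment calls were 10, 6 and 5 in those comparisons. Over all 25103 genes, whole-leaf calls in those comparisons were 8801, 3547 and 11683 without that block. With it they were 5699, 1039 and 10180. Without the pool block, which does pair segments, calls along the blade were 1 in W30, 0 in D30, 5 in W40 and 2 in D40, and 0 for the gradient with heat in well-watered plants and with drought at 40 °C. No count over all genes was kept for the alternatives along the blade. Depth limits AOS2 above all, with no count in 44 of 80 libraries.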
